A study of Mus musculus with 4 samples.

Results

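Open chromatin was compared at the genes of the cytosolic ribosomal proteins in MC38/gp100, a line grown from a mouse colon carcinoma that carries the melanocyte antigen gp100. The members were the protein-coding genes of the mm10 RefSeq table whose symbol is Rpl or Rps followed by a digit, or Rpsa, without Rps6k genes and pseudogenes, which gave 86 of 21900 protein-coding genes. The rule used no measured value. Of the 86 genes, 74 encode core ribosomal proteins, 8 are paralogues (Rpl3l, Rpl7l1, Rpl10l, Rpl22l1, Rpl32l, Rpl36al, Rpl39l and Rps27l) and 2 are retrogenes (Rpl37rt and Rps27rt). The other 2, Rps19bp1 and Rps23rg1, fit the rule by symbol only and are not components of the ribosome. A peak was taken as a member when its centre lay inside such a gene or within 1 kb of one of its ends, and 117 of 97699 peaks did. Of these, 114 were tested by the authors, meaning that their deposited adjusted p-value is below 1, and 103 of the tested peaks lay within 1 kb of a member's end and are called gene-edge peaks.

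The assay was ATAC-seq, in which a transposase cuts and tags open DNA. One group of 2 libraries came from cells kept for 5 days in the solvent DMSO, and the other group of 2 from cells kept for 5 days with GSK3368712 at 1 µM, a compound that blocks type I arginine methyltransferases (PRMTs). Both groups are the same line in the same medium, and nothing in the labels says whether the paired libraries are separate cultures. The authors' deposited table holds 1 mean per group and no value per library, so every level below is a mean of 2 libraries without a spread. Levels are log2 mean normalised reads, given here also as reads, and the change is the log2 level under the inhibitor minus that in DMSO. The p-values are the authors'. A standard error was derived from a peak's change and p-value or, where the change was under 0.1 log2, taken from peaks of like level. The table listed a gene-edge peak for 2 of 8 markers of colon epithelium, Krt8 and Lgr5, with highest levels of 8.33 and 6.33. It listed none for Epcam, Krt18, Krt20, Cdh1, Vil1 or Cdx2. It listed one for 3 of 4 blood markers, at levels of at most 6.11, and for 3 of 6 markers of fibroblasts and endothelium, of which Col1a1 had a level of 10.63.

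Ribosomal proteins bind ribosomal RNA to form the small subunit, which decodes the messenger, and the large subunit, which joins amino acids. Their genes are among the most actively transcribed in growing cells and are kept in step so that the subunits receive their proteins in matching amounts. Many mammalian ribosomal protein mRNAs begin with a C followed by a run of pyrimidines, the terminal oligopyrimidine or TOP element, through which the mTOR pathway and LARP1 control their translation. Type I arginine methyltransferases reach the ribosome by several routes, the best known being PRMT3, which binds and methylates the small subunit protein Rps2.

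A TOP element lay exactly at the annotated start in 14 of 79 member promoters, and 6 of these, chosen because they hold it, are shown first. Each line runs from 40 bases before to 20 bases from the start, 5′ to 3′ on the gene's strand (RefSeq, GRCm38.p6), and the capitals mark the C at the start and the unbroken pyrimidines after it.
Rps6, chr4:86857348-86857407, minus strand: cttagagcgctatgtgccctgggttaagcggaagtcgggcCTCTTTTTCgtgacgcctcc
Rps10, chr17:27635225-27635284, minus strand: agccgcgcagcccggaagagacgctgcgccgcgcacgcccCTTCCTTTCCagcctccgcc
Rps18, chr17:33955646-33955705, minus strand: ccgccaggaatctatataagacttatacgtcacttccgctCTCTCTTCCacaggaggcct
Rpl15, chr14:18270967-18271026, minus strand: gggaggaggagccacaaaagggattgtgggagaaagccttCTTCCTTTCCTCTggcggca
Rpl28, chr7:4792925-4792984, plus strand: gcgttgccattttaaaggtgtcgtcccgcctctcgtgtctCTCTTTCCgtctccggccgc
Rpl35, chr2:39005112-39005171, minus strand: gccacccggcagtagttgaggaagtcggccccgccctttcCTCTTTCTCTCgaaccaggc

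The promoters of 3 genes whose starts lay under the strongest open peaks with a matched promoter, Rps21, Rpl37 and Rps19, and of Rpl10, which had the lowest p-value among peaks over a matched start, are shown from 200 bases before to 20 bases from the start. Capitals mark CCGGAA (the core of sites for ETS factors such as GABP) and GGGCGG (SP1) on either strand, any TOP element, and in Rps19 the letters CTCGCGAG, a motif added after the values had been seen. Where an SP1 match and a TOP element meet, as in Rps21, the capitals run together.
Rps21, chr2:180257179-180257398, plus strand: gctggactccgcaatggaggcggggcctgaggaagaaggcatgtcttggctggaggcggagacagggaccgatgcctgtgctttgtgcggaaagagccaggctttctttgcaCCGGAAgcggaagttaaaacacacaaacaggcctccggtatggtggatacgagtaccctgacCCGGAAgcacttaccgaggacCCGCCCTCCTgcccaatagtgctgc
Rpl37, chr15:5116413-5116632, plus strand: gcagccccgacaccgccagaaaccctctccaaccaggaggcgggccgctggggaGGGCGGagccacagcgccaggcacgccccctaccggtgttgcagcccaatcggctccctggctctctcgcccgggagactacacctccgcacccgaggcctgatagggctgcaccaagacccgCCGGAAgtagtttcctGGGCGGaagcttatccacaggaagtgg
Rps19, chr7:24884392-24884611, plus strand: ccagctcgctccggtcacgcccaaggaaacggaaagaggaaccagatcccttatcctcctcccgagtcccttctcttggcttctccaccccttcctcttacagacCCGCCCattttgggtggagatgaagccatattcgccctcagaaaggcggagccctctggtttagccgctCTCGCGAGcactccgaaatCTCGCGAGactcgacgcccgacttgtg
Rpl10, chrX:74270616-74270835, plus strand: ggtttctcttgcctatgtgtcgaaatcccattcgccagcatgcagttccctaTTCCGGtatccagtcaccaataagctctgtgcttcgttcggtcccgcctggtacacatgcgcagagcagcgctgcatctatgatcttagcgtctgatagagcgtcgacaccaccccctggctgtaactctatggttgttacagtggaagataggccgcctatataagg

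No peak at or in a ribosomal protein gene passed the test. By the authors' deposited table (DiffBind with DESeq2, adjusted p below 0.05), 0 of 103 tested gene-edge peaks and 0 of all 114 tested member peaks were called in either direction. The background is low at gene ends. Of 12690 gene-edge peaks in all, 1.8% were called, 1.54% lower and 0.252% higher. Of all 74791 tested peaks, 6.59% were called, 6.09% lower and 0.492% higher. Among 7851 other gene-edge peaks at the level of the middle 80% of the members, 1.4% were called, 1.24% lower and 0.166% higher. A count of 0 among 103 peaks is near the share at gene ends and says nothing particular to the family. At an unadjusted p below 0.05 in the authors' deposited table, 3 of the 103 gene-edge peaks were lower and 0 higher. The background at that limit was 6.06% lower and 1.78% higher among gene-edge peaks, and 5.44% and 1.58% among those of like level. Over all 114 tested member peaks 4 were lower, the further one lying inside Rps23rg1. Among all tested peaks 14.3% were lower and 2.18% higher. Those are an unlike set, mostly away from gene ends, with a median level of 7.04 against 9.83 for the member gene-edge peaks.

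Each of the 74 core genes had at least 1 tested peak, and its strongest one was taken. That peak was not always over the start. At Rpl4, Rpl18, Rpl19 and Rpl41 it lay away from the annotated start, and in all of these but Rpl18 its centre was nearest to an end of another gene. The start peak of Rpl4 had the same level of 9.54 and a change of 0.12, against -0.05 for the one taken. In DMSO these strongest peaks held from 396 to 2937 normalised reads with a median of 1083, and under the inhibitor from 377 to 2916 with a median of 1021. All 74 were called as peaks in all 4 libraries. Their level exceeded that of a median of 72.2% of other gene-edge peaks, and 65 of the 74 lay above the median of those peaks. The weakest exceeded 36.8% of them. These ranks set the strongest peak of each gene against all gene-edge peaks, so the choice itself raises them. Over annotated starts the median level was 9.985 for 60 members, against 9.77 for 8268 start peaks of other genes. The change ran from -0.25 to 0.14 with a median of -0.05, a ratio of 0.966. For all 74 the derived 95% interval of the change lay within 0.5 log2 of zero on both sides, from a lowest bound of -0.47 to a highest bound of 0.37, and 2 intervals left out zero. An interval within 0.5 log2 of zero was also found for 97.5% of 7155 other gene-edge peaks with a level of 9 or more. Where a change was under 0.1 log2, its standard error was taken from peaks of like level. Such an interval follows from the level and the small change, and does not rest on the peak's own p-value.

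**Figure D1:**
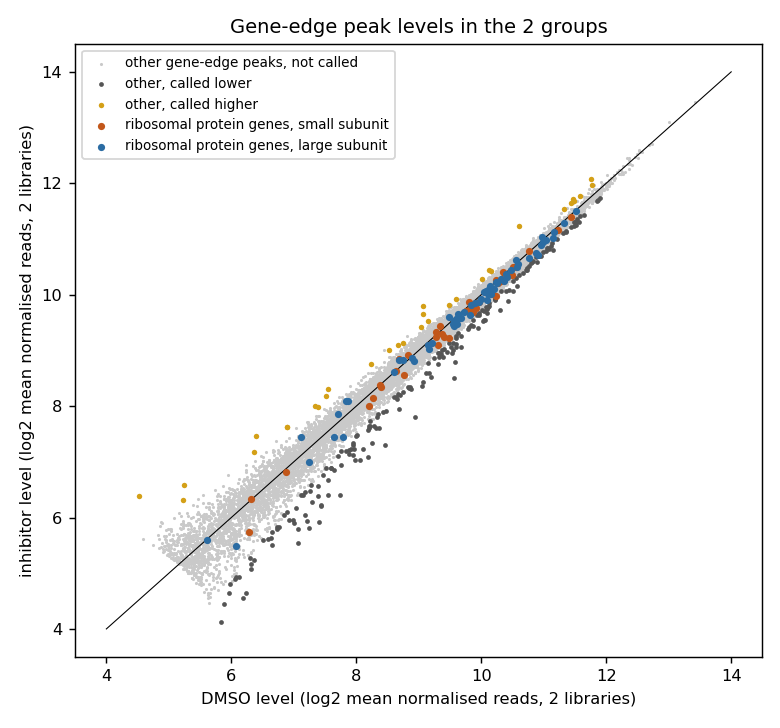
Level of each tested gene-edge peak in DMSO (x axis) against the inhibitor (y axis), both in log2 mean normalised reads of 2 libraries, with the line of equal level. The 103 peaks of ribosomal protein genes (orange for Rps, blue for Rpl symbols) follow the line, while the called peaks of other genes lie on both sides of it.

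**Figure D2:**
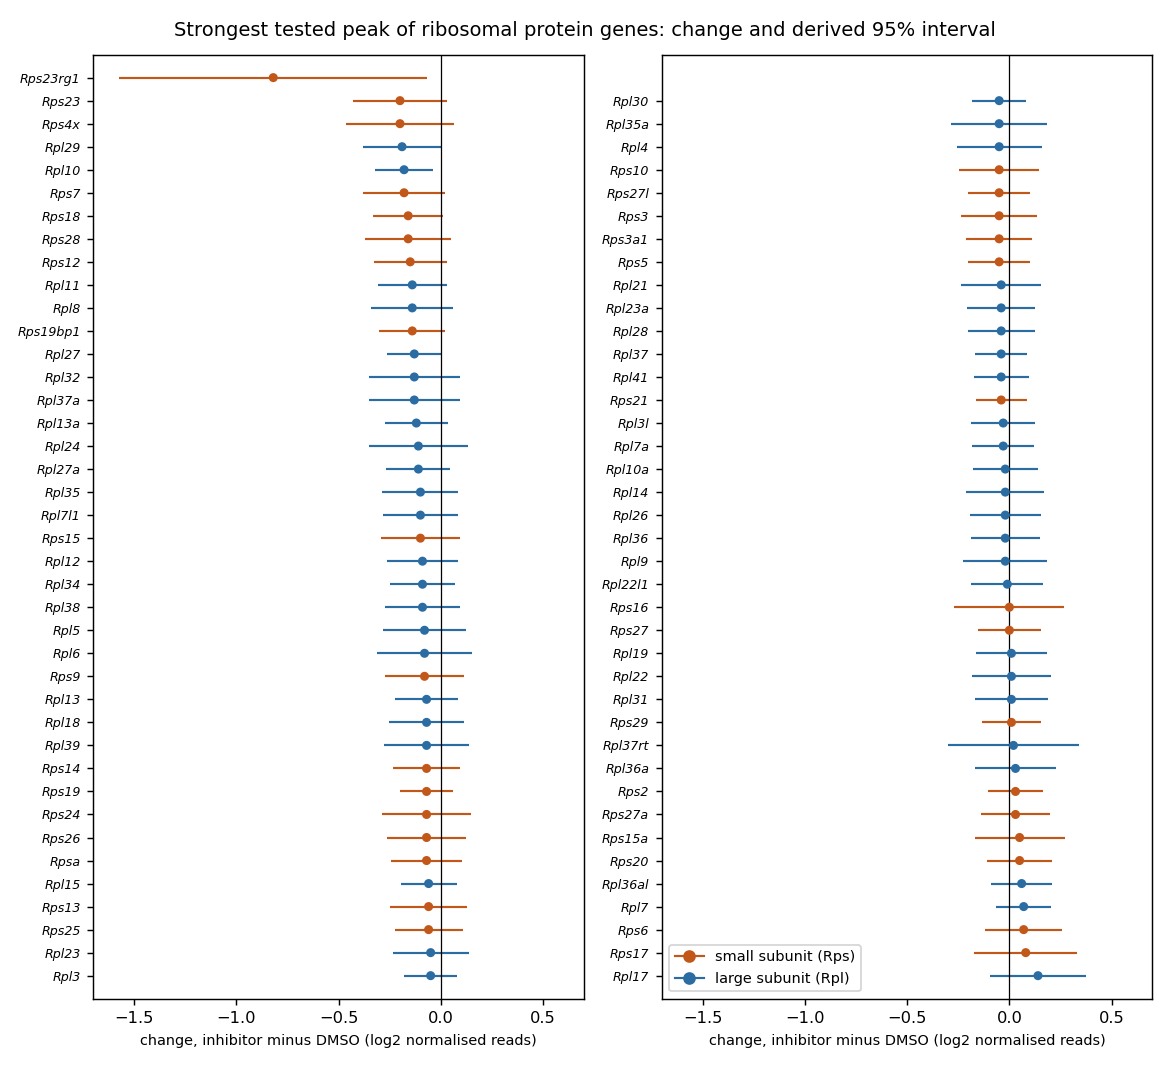
Change (x axis, log2 normalised reads, inhibitor minus DMSO) of the strongest tested peak of 79 of the 82 genes with a peak, with its derived 95% interval, coloured by the subunit in the symbol, so that Rps19bp1 and Rps23rg1 appear with the small subunit. The 71 core genes drawn lie between -0.20 and 0.14, and the wide interval at the lowest value belongs to Rps23rg1.

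Among small subunit genes, 31 core members had a median change of -0.06 at the strongest peak, with a range from -0.25 to 0.09. Both peaks of Rps18, on chromosome 17, had a negative change. The peak over its start, whose centre is nearer to an end of the neighbouring gene Vps52, had 1152 and 1031 reads and a change of -0.16. The one past its other end lies nearer to B3galt4 and had 714 and 600 reads, a change of -0.25 (adjusted p 0.203, from the authors' deposited table).

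Rps2, the partner of PRMT3, had one of the strongest peaks of the family. It lies over the annotated start on chromosome 17 from 24719589 to 24720514, and held 2020 normalised reads in DMSO and 2062 under the inhibitor. The change of 0.03 had a derived interval from -0.10 to 0.16 (adjusted p 0.929, from the authors' deposited table). Rps6, the substrate of the S6 kinases, had 891 and 936 reads and a change of 0.07. Rps3, which also acts in DNA repair, had 949 and 917 reads over its start, a change of -0.05. Rps19, the gene most often mutated in human Diamond-Blackfan anaemia, had 2402 and 2288 reads, a change of -0.07. Rpsa, known also as the laminin receptor, had 1136 and 1082 reads, likewise -0.07. None of these 5 changes exceeded 2 derived standard errors. Rps21 had the strongest small subunit peak, with 2778 and 2702 reads and a change of -0.04.

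Among large subunit genes, 43 core members had a median change of -0.05 at the strongest peak, with a range from -0.19 to 0.14. Rpl10, the X-linked protein near the peptidyl transferase centre that is loaded late in assembly, had 1911 normalised reads in DMSO and 1687 under the inhibitor over its start. Its change of -0.18 had a derived interval from -0.32 to -0.04. The authors' deposited table gives it an unadjusted p of 0.014 and an adjusted one of 0.137. Rpl29 had -0.19, with 904 and 792 reads (adjusted p 0.317, from the authors' deposited table). Rpl17 stood at the other end of the range with 478 and 526 reads, a change of 0.14.

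Several large subunit proteins also restrain the p53 ubiquitin ligase MDM2 when ribosome assembly fails. Rpl5 and Rpl11, which do so together with a ribosomal RNA, had 815 and 771 reads and 1136 and 1031 reads over their starts, changes of -0.08 and -0.14. Rpl23 and Rpl26, which bind MDM2 as well, had -0.05 and -0.02 over their starts. The intervals of these 4 changes all include zero. Rpl13a, known for silencing of inflammatory mRNAs in the GAIT complex, had 1872 and 1722 reads and a change of -0.12. Rpl37 had one of the strongest peaks of the family, with 2557 and 2487 reads and a change of -0.04.

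Paralogues with a peak over the start had changes between -0.10 and 0.06, and none passed the test. Rpl22l1, the counterpart of Rpl22, had 1075 normalised reads in DMSO and 1067 under the inhibitor over its start, a change of -0.01. Rpl22 itself had 873 and 879 reads, a change of 0.01. Rpl36al had 1510 and 1574 reads and a change of 0.06, in a peak whose centre is nearer to an end of Mgat2. Rps27l, a p53 target gene, had 1541 and 1489 reads and a change of -0.05. Rpl7l1 had 1105 and 1031 reads over its start, a change of -0.10, and 2 peaks near its other end had -0.18, past the gene and nearer to 2310039H08Rik, and -0.26, just inside it. The peak assigned to the muscle paralogue Rpl3l, with a change of -0.03, lies nearer to Msrb1 and not over an annotated start of Rpl3l. Rpl10l, Rpl32l, Rpl39l and Rps27rt had no peak assigned.

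The most negative changes of the family were at weak peaks of members outside the core. Rps23rg1 had a weak peak inside the gene with 60.1 and 34.1 normalised reads and a change of -0.82. Its derived standard error was 0.38 (adjusted p 0.238, from the authors' deposited table). The retrogene Rpl37rt had 67.6 and 44.9 reads at one end, a change of -0.59 (adjusted p 0.438, from the authors' deposited table), while its stronger peak inside the gene had 256 and 259.6 reads and 0.02. Rps19bp1, which encodes a binding partner of Rps19, had 1438 and 1305 reads over its start, a change of -0.14.

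Weak peaks away from the starts gave the widest scatter within the core genes. A peak of 155 bp at the far end of Rps3 had 77.7 and 53.4 reads and a change of -0.54, and one of 264 bp past Rpl27 had 221 and 175 reads and -0.34. On the other side, a peak of 192 bp past Rpl26 had 139 and 175 reads and a change of 0.33, and far-end peaks of Rpl23, Rpl22 and Rpl19 had 0.25, 0.23 and 0.15. A peak assigned to Rps19bp1 also had 0.15. None passed the test. In all, 15 member peaks were under 300 bp wide, and 12 of these were not called in all 4 libraries, against 1 of the 102 wider ones. Whether reads from processed copies of ribosomal protein genes could align to such peaks inside transcribed sequence was not tested.

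The peaks over the starts reached to both sides of the start. Of the 86 genes, 67 matched a RefSeq promoter entry, and 60 of these had a tested peak that covers an annotated start. These peaks reached from a median of 523 bp before to 471.5 bp after the start, with a median width of 999 bp and a range from 601 bp at Rpl13 to 1689 bp at Rpl10. Their centre lay a median of 19 bp before the start, and 37 of the 60 centres were upstream of it. The centres ran from 386.5 bp before the start at Rpl13a to 271 bp after it at Rpl5. For 8268 start peaks of other genes the width was 1031 bp and the centre lay 25 bp after the start, with 44.1% of centres upstream. The annotated starts are those of RefSeq, and no test of this difference was made.

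**Figure D3:**
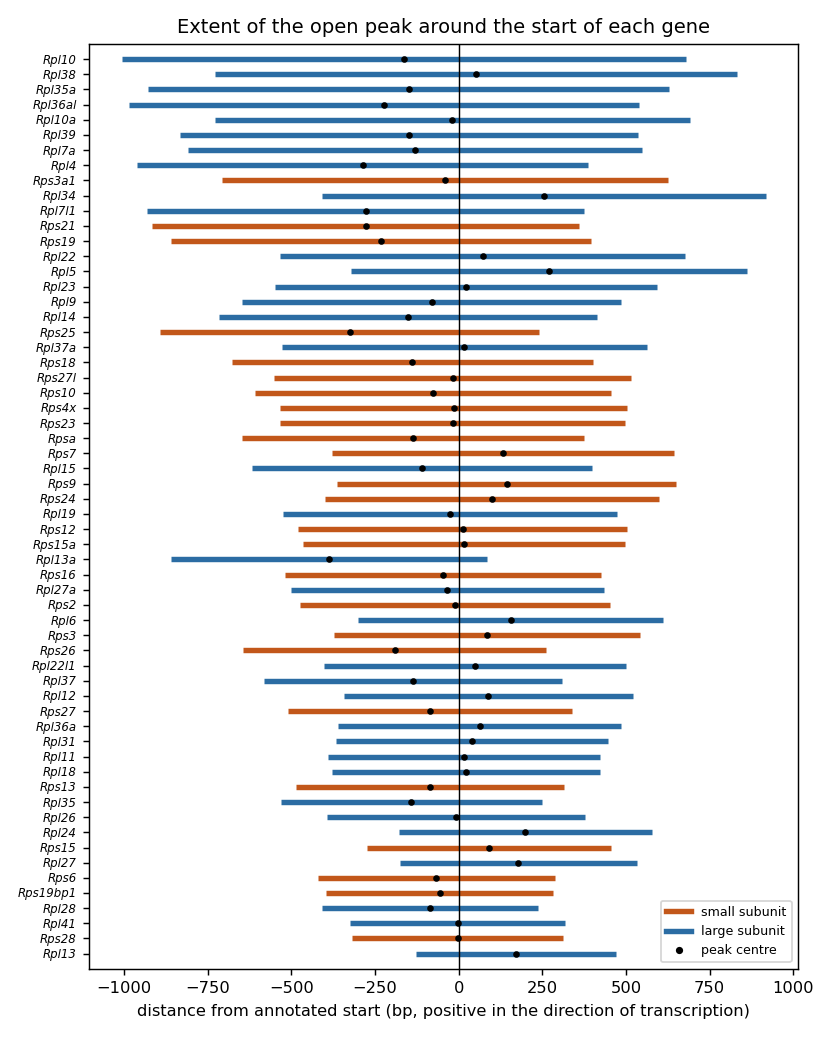
Extent of the tested peak over the annotated start of 60 members, as distance from the start in bp with positive values in the direction of transcription; dots mark centres and colours the subunit. Peaks reach to both sides of the start, with a median width of 999 bp.

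Each sequence searched for was found in a part of the member promoters only. In the window from 250 bases before to 50 after the start, which 79 promoter entries of 67 genes provide, CCGGAA occurred on either strand in 45.6% of member promoters. It occurred in 14.9% of all 32851 promoters and in 28.4% of promoters of other genes with a start peak. CTTCCGG, whose reverse complement contains CCGGAA, gave 32.9%, 8.86% and 18.3% in the same order. The YY1 letters GCCATC gave 25.3%, 14.1% and 14.7%, and AAGATGG gave 15.2%, 6.34% and 7.02%. GGGCGG gave 57.0%, 35.7% and 64.2%. TATAA, which includes every TATAAA, gave 22.8%, 24.9% and 12.9%, and TATAAA alone 8.86%, 13.6% and 6.69%. CACGTG gave 10.1%, 7.15% and 10.0%, and GCGCATG 10.1%, 3.91% and 7.23%. A TOP element was searched on the gene's strand as a C followed by at least 4 pyrimidines exactly at the annotated start. It was found in 14 of the 79 member promoters, or 17.7%, against 2.51% of all promoters and 2.20% of other open ones. Elements at starts annotated some bases off could be missed, so these shares depend on the annotation.

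The changes over the start are given beside these features as a description, with no test. The 12 genes with a TOP element found exactly at the annotated start had a median change of -0.045 over the start. The 48 others, which may hold one that the search missed, had a median of -0.07. The 33 genes with CCGGAA and the 27 without both had a median of -0.07. The median was 0 for the 6 genes with TATAAA, against -0.07 for the 54 others, and -0.04 for the 10 genes with AAGATGG, against -0.07 for the 50 others. For GCCATC it was -0.05 in 15 genes and -0.07 in 45, and for GGGCGG -0.055 in 38 and -0.075 in 22. For the other 4 motifs of the search named above, the medians with and without the letters lay between -0.08 and -0.06.

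The start peaks of the family had a lower median change than those of other genes. Among the 57 start peaks with a level of 9 or more, the median change was -0.07, and 47 of them, or 82.5%, were below zero on the authors' scale. Among 6259 start peaks of other genes at these levels the median was -0.03 and 60.6% were below zero on that scale. Against gene-edge peaks of like level, meaning within 0.25 log2, the 103 member gene-edge peaks had a median difference of -0.02. The median change of those 103 peaks, -0.05 on the authors' scale, turned to 0.03 when all changes were scaled to the groups' summed reads over peaks and to 0.02 when centred on the median of tested peaks, so it has no direction independent of scale. The interquartile range of the change was 0.08 among 34 members between levels 9 and 10, against 0.15 for other gene-edge peaks, and 0.08 among 36 members against 0.11 between levels 10 and 11. At lower levels the members were not narrower. The range was 0.19 for both sets between levels 8 and 9, 0.475 for 7 members against 0.27 between 7 and 8, and 0.52 for 5 members against 0.45 between 5 and 7. No test was made of these differences, since members share a scale and 4 libraries.

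**Figure D4:**
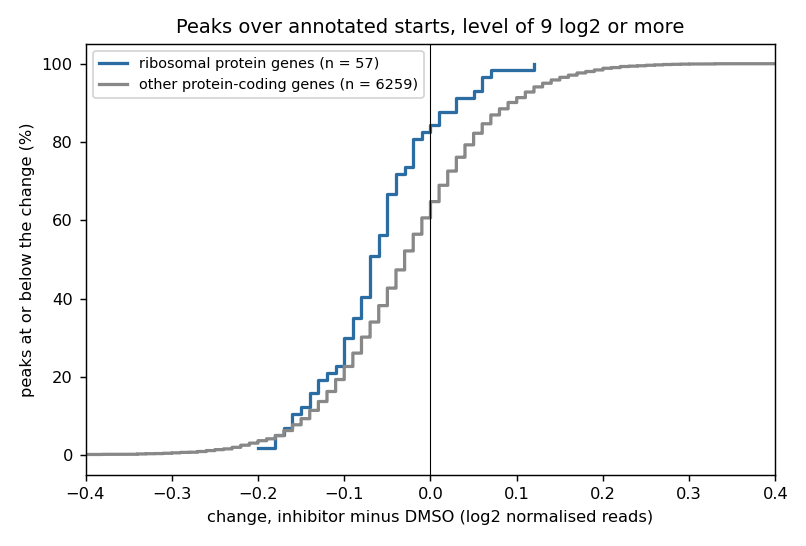
Cumulative share (y axis, %) of start peaks with a level of 9 log2 or more at or below each change (x axis, log2 normalised reads, inhibitor minus DMSO), for 57 ribosomal protein genes and 6259 peaks of other genes. On the authors' scale the family's curve stands at 82.5% just below zero and that of other genes at 60.6%, and the family's ends at 0.12.

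Medians by group of members are given as a description. The 11 genes mutated in human Diamond-Blackfan anaemia had 14 gene-edge peaks with a median change of -0.065, and the 4 X-linked genes had 5 with -0.07. For 27 genes that hold a snoRNA gene within their span the median of 35 gene-edge peaks was -0.05, against -0.06 for 68 peaks of the others. For 30 genes that share an end with another protein-coding gene within 1 kb, the median of 39 peaks was -0.05, as for the 64 peaks of genes that do not.

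Other genes of the translation machinery gave 1 lower and 1 higher call in all at their ends. Of 6 cytosolic ribosome genes outside the rule, 0 had a called gene-edge peak, and their median change was -0.08. The P-stalk genes Rplp0, Rplp1 and Rplp2 had 0.03, 0.01 and -0.14, Rack1 had -0.10, and the ubiquitin-like fusion gene Fau had -0.07. Of 40 translation factor genes with a tested gene-edge peak, 0 were called and the median was -0.06. Of 46 ribosome biogenesis genes, 1 was lower and 0 higher, with a median of -0.05. The lower one was Nolc1, a nucleolar chaperone of snoRNPs, with 1499 and 1261 normalised reads, a change of -0.25 (adjusted p 0.0272, from the authors' deposited table). A weaker gene-edge peak of Nolc1, not called, had 156 and 182 reads and 0.22. Of 72 mitochondrial ribosomal protein genes, 0 were lower and 1 was higher, with a median of -0.045. The higher one was Mrpl11, with a weak peak of 37.3 and 79.3 reads, a change of 1.09 (adjusted p 0.0297, from the authors' deposited table), while its stronger peak had 832 and 776 reads and -0.10. The background over 11699 protein-coding genes with a tested gene-edge peak was 1.74% with a lower and 0.35% with a higher one.

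Of 10 genes for factors known at ribosomal protein promoters, 0 were called, and the median change of their 17 gene-edge peaks was -0.09. Gabpa, the DNA-binding subunit of GABP, had -0.05, Yy1 had -0.08 and Sp1 had -0.03 at its peak of 6794 and 6654 reads. Of 5 type I arginine methyltransferase genes with a tested gene-edge peak, 0 were called, and the median of their 7 peaks was 0.03. Prmt3, like Prmt2, had 0.14, Prmt6 had 0.03, and Prmt1 and Carm1 had -0.06 and -0.05 at their stronger peaks. The median over all 12586 gene-edge peaks of non-members was -0.03.

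Called peaks did occur around the family, outside the genes. Within 50 kb, 22 of the 78 members with a tested gene-edge peak, or 28.2%, had a lower peak, against 36.9% of 11621 other such genes, and 3, or 3.85%, had a higher one, against 4.18%. Both sets had a median of 11 tested peaks in these windows. The windows run across the gene itself, so the shares of other genes also count called peaks at or inside them. Members had no called peak there, so the shares are not like for like. The nearest lower peak lay 2.18 kb from Rps3 and went from 117 to 64.4 normalised reads, a change of -0.86 (adjusted p 0.0371, from the authors' deposited table). Other lower peaks lay 4.99 kb from Rpl7 with a change of -0.44 and 7.62 kb from Rpl37 with -0.66. The lowest adjusted p belonged to a peak 24.6 kb from Rps27, on chromosome 3 from 90187664 to 90188450, which went from 218 to 73.5 reads, a change of -1.57 (adjusted p 6.17e-09, from the authors' deposited table). A weak peak 29.6 kb from Rpl26, with 88.0 and 26.4 reads and called in 0 of the inhibitor libraries, had -1.74. In both cases the peak over the start of the ribosomal protein gene did not pass the test, with changes of 0.00 at Rps27 and -0.02 at Rpl26. Higher peaks lay 23.2 kb from Rpl29 and 38.6 kb from Rpl5, with changes of 0.82 and 1.29. Both were weak, with 65.8 and 116 reads near Rpl29 and 22.3 and 54.6 near Rpl5. The peak near Rpl5 was called in 0 of the DMSO libraries. A further one lay 25.2 kb from the retrogene Rps27rt, which has no peak of its own, with 0.79. Which genes these peaks act on was not tested.

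**Figure D5:**
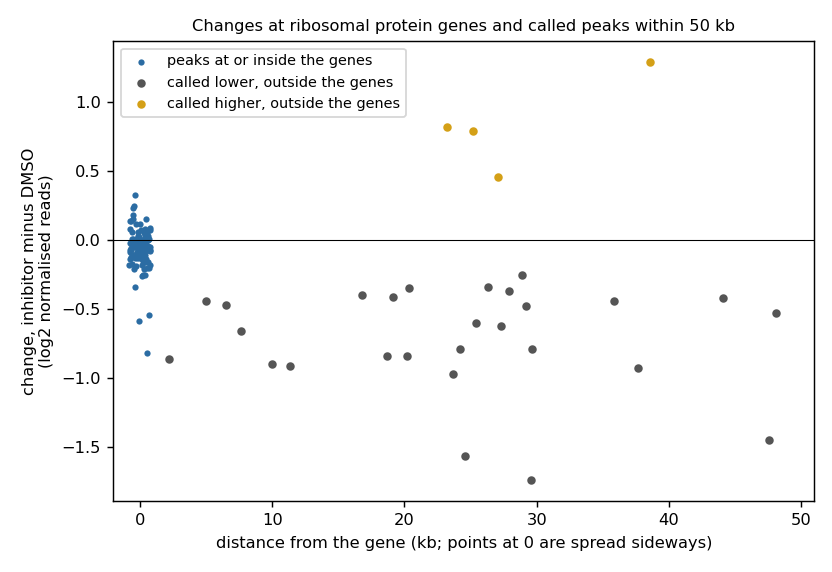
Change (y axis, log2 normalised reads, inhibitor minus DMSO) of the 114 tested peaks at or in ribosomal protein genes (blue, at distance 0 and spread sideways) and of the called peaks up to 50 kb outside the genes (x axis, kb). The called peaks include changes down to -1.74 and up to 1.29, both at weak peaks, while 0 of the blue peaks was called.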

How the data were processed

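ATAC-seq libraries of 2 groups of 2 were analysed. The submitters' processing notes list DiffBind 2.8.0, DESeq2, MACS2 2.1.1.20160309, HISAT2 2.1.0 and Picard 1.113, with mm10 as the build; settings, the handling of reads with several alignments and any shift of reads for the transposase are not stated there. The table that the authors deposited gives log2 mean normalised reads per peak, over all libraries and per group, with p-values and adjusted p-values, and the number of libraries in which each peak was called. It holds no value per library, so the deposited adjusted p-value at 0.05 was used, no new test was made across libraries, and depth per library is unknown. The spread behind those p-values is that between 2 libraries a group and may be technical. Peaks were placed with RefSeq gene spans of GRCm38.p6, the assembly behind mm10. A standard error was derived from each change and its two-sided p-value, taking a normal distribution; for changes under 0.1 log2 the median of the 501 peaks nearest in level was used. The steps were tested on simulated data. Members and lists were chosen with earlier results of these data known. The rule for named genes took called peaks, the 5 lowest and 5 highest gene-edge changes, the 3 strongest peaks, the lowest p-value, Rps2, Rps3, Rps6, Rpsa, Rpl5, Rpl11, Rps19, Rpl13a, paralogues with a peak and called genes of other lists. Rps18, Rpl10, Rpl17, Rpl29, Rps23rg1, second peaks of named genes, uncalled genes of other lists and genes near called peaks were added after their values were seen. Python 3.11.15, numpy 2.4.6, pandas 2.3.3 and scipy 1.17.1 were used. Some values that the rule would name are not reported here.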

Additional observations from a re-analysis of the deposited data

How the results depend on the processing

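At an adjusted p of 0.1 the counts of called gene-edge peaks, of all called member peaks and of genes with a called peak each became 1, a lower peak. They were 0 at 0.01, with both other scalings, with windows of 500 bp and 2 kb, at annotated starts, without the level filter, for core genes and for peaks whose nearest gene end is the member's; the last pair of settings was chosen after seeing the data. With the other scalings, the p-values were recomputed from the shifted change and the derived standard error under a normal distribution, and adjusted again. The median change ranged from -0.07 at annotated starts to 0.03 when scaled to the groups' summed reads over peaks. The difference from peaks of like level ranged from -0.03 to -0.02. No paired analysis was possible because the table holds group means, and for the same reason leaving out a library, other normalizations and count filters were not run. The median derived standard error of member gene-edge peaks was 0.16 below a level of 9 and 0.09 at 9 or more. A change must be well above its standard error to be called, so changes of these sizes, and somewhat larger ones, were not detectable at either level. The peak over the start of Rpl10, with a change of -0.18 and a derived standard error of 0.07, was not called (adjusted p 0.137, from the authors' deposited table).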

Other observations

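The letters CTCGCGAG, the core of a palindrome bound by BANP and ZBTB33, were noticed in these promoters and searched only then. They occurred in 8 of 79 member promoters, or 10.1%, from 7 genes, against 0.919% of all 32851 promoters and 1.90% of promoters of other genes with a start peak. Rps19 holds them in 2 places. The 7 genes had a median change of -0.07 over their starts, as did the 53 without the letters. This is a description of a motif chosen for its frequency, with no test.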
